A study of Mus musculus with 6 samples.

Results

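Cluster 12 is a small group of 284 nuclei among the 38154 nuclei of the deposited table (0.744%), taken here as every nucleus that the authors' clustering had given the number 12 of 15 clusters. The study's results also give 15 clusters, while its methods state another number. The match between deposited numbers and the study's map was not settled, so no cell type name was taken from that map. The nuclei came from organoids grown from jejunal crypts of C57BL/6 mice aged 8 to 12 weeks. Organoids had been cultured in medium conditioned by mouse embryonic fibroblasts made quiescent by serum deprivation (QCM, 3 samples) or senescent by X-ray irradiation or doxorubicin (SCM, 3 samples), and which of these agents was used is not given per sample. The labels name no allele in either group, and the medium holds everything the fibroblasts released, so that no single factor was tested. RNA was counted in single nuclei as UMIs, the distinct RNA molecules tagged in a droplet. Cluster 12 held 33, 50 and 58 nuclei in QCM replicates 1, 2 and 3, and 1, 56 and 86 nuclei in SCM replicates 1, 2 and 3. Values per sample below are from the 5 samples with 10 or more nuclei, in which the cluster summed to between 107827 and 286144 UMIs. The single nucleus of SCM replicate 1 entered only the shares of nuclei and the values pooled over all nuclei of a cluster, thinned nuclei and map neighbours among them.

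The epithelium of the small intestine is renewed from stem cells in the crypts, whose progeny become absorptive enterocytes or secretory goblet, Paneth, enteroendocrine and tuft cells. Enterocytes take up amino acids through families of membrane carriers, of which the Slc7 family moves cationic and neutral amino acids and often works as a pair of subunits. A graph clustering such as the one used by the authors divides nuclei by the genes that vary among them, and a group may rest on a broad programme of genes or on few transcripts. Because the nuclei of cluster 12 had been placed together on these same counts, its genes against the other nuclei are given as a description with no test.

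Cluster 12 was set apart by a pair of overlapping transcripts from opposite strands of chromosome 12. One is Slc7a15 (ENSMUSG00000020600), a protein coding gene of the Slc7 family at chr12:8528483-8599066 on the minus strand. The other is 5033421B08Rik, a long noncoding RNA gene at chr12:8511201-8562681 on the plus strand. Coordinates are those of GENCODE M21 on GRCm38, the same assembly as the mm10 build of the files. The gene bodies share 34199 bases, which is 66.4% of 5033421B08Rik, and they share 0 bases of exon. The sources used here do not state whether the strand of the reads and intronic reads were used in counting, so that the division of UMIs between these genes is uncertain and their sum is given beside each. Upstream sequences of both genes are shown because both transcripts were high in the cluster. They are the 250 bases before the outermost RefSeq start site of each gene on GRCm38.p6, written 5′ to 3′ on the strand of the gene, and capitals mark each TTTAT or GATAA on either strand, none of which overlap.
Slc7a15, chr12:8599067-8599316, minus strand: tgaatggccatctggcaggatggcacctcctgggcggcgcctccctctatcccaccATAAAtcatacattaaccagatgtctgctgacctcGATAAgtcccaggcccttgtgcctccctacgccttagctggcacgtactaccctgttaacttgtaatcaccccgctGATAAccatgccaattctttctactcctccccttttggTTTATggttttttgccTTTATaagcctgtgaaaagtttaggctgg
5033421B08Rik, chr12:8510913-8511162, plus strand: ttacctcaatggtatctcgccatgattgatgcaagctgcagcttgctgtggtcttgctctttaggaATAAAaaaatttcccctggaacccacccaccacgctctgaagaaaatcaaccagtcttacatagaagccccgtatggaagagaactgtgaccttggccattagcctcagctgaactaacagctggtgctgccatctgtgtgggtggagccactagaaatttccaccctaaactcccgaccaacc
TTTAT is the core bound by CDX homeodomain factors and GATAA that bound by GATA zinc finger factors, both of which act in intestinal epithelium. The Slc7a15 window held 3 matches to TTTAT and 2 to GATAA, and the 5033421B08Rik window held 1 match to TTTAT and 0 to GATAA. RefSeq gives Slc7a15 another start inside the gene body, whose window at chr12:8539567-8539816 held 0 matches to either. Among all 32851 RefSeq promoter entries cut to the same length, 37.3% held TTTAT, 22.6% held GATAA, 14.9% held both and 5.69% held TTTAT 3 or more times. These letters are common in such windows, and a match is not a shown binding site.

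Slc7a15 reached 83.9 CPM (UMI counts scaled to a library total of 1000000) in cluster 12 of QCM replicate 1, 272 in QCM replicate 2, 269 in QCM replicate 3, 239 in SCM replicate 2 and 258 in SCM replicate 3. In all other nuclei of the same samples it lay at 18.4, 4.35, 6.91, 11.5 and 5.18 CPM. The lowest value in cluster 12 was therefore above the highest value outside it, and QCM replicate 1, the most deeply sequenced sample, had the smallest gap. 5033421B08Rik reached 31.5, 198, 260, 185 and 208 CPM in cluster 12 in the same order, against 8.10, 2.77, 2.88, 6.68 and 3.91 CPM in the other nuclei. These values did not overlap between cluster 12 and the other nuclei either, and QCM replicate 1 was again closest. As a mean of per-sample log2 ratios of (CPM + 5), Slc7a15 stood at 3.98 ± 1.21 (SD, n = 5) and 5033421B08Rik at 3.97 ± 1.44. These means rest on 167 UMIs of Slc7a15 and 125 UMIs of 5033421B08Rik in these 5 samples.

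**Figure D1:**
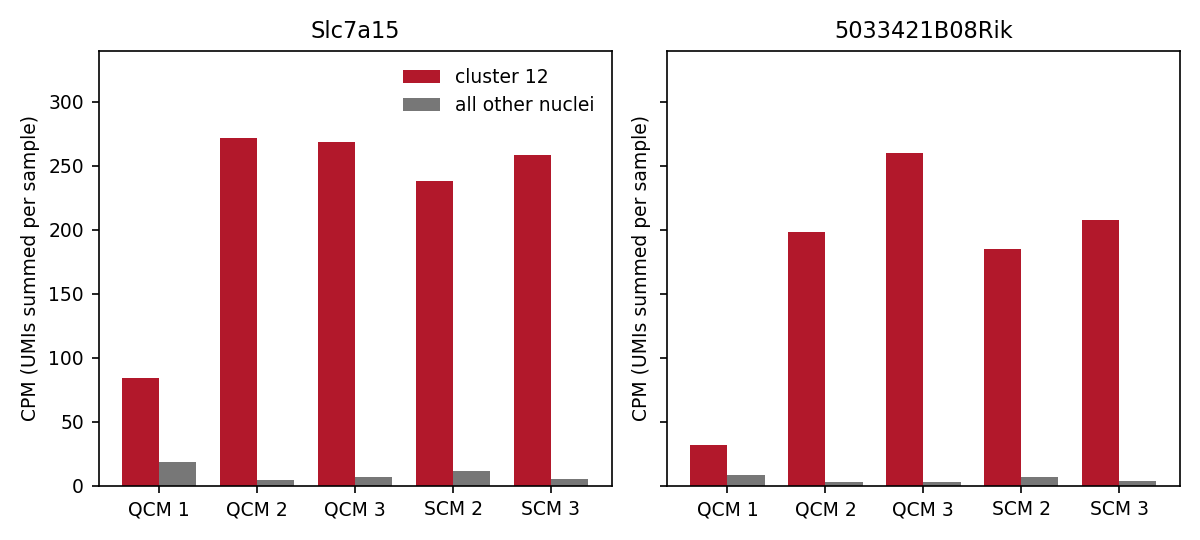
CPM of Slc7a15 (left) and 5033421B08Rik (right) in UMIs summed over cluster 12 (red) and over all other nuclei (grey) of each sample with 10 or more nuclei of the cluster. Every red bar stands above every grey bar of its gene, and QCM replicate 1 has the lowest red bars, at 83.9 and 31.5 CPM.

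Only these 2 of 8336 genes with enough counts to be ranked (0.024%) were at least 2-fold higher in cluster 12 in each of the 5 samples, and 2 genes (0.024%) were at least 2-fold lower. By the same rule the count was 101 genes in cluster 8 over 6 samples, and 146 in cluster 9 and 28 in cluster 11 over 5 samples each. Cluster 11 held 366 nuclei and 1460500 UMIs, against 839953 UMIs in cluster 12. The count was 0 in clusters 0, 1 and 5 over 6 samples each, so a short list was not particular to cluster 12. Genes that flank the locus stayed near the other nuclei. Pum2, an RNA binding translational repressor, had a log2 ratio of -0.10, the proteoglycan Sdc1 had -0.03, the lysosomal protein Laptm4a had 0.23, the lipid droplet hydrolase Ldah had -0.16 and the small GTPase Rhob had -0.44, the last on 4 UMIs.

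**Figure D2:**
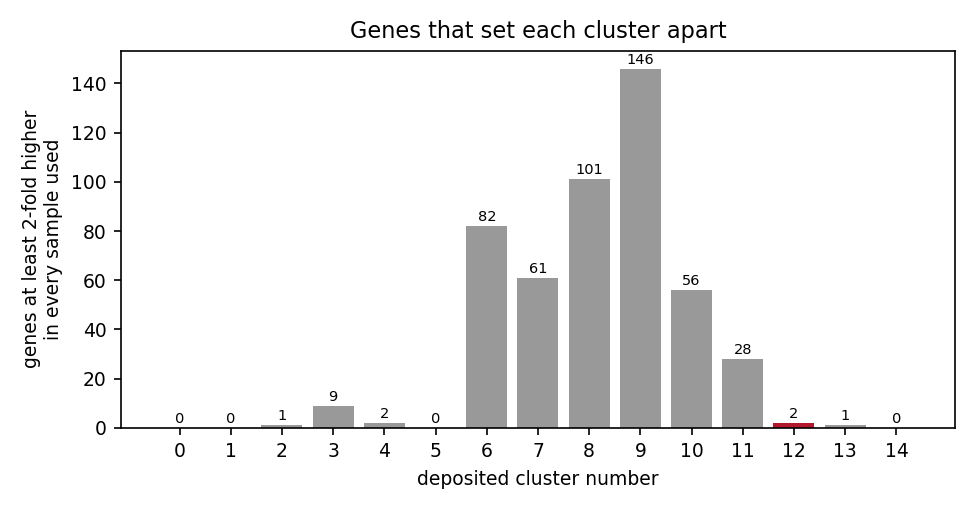
Number of genes at least 2-fold higher than in all other nuclei in every sample with 10 or more nuclei of a cluster, for each of the 15 deposited clusters. Cluster 12 (red) has 2 such genes, against 28 to 146 in clusters 6 to 11.

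Within cluster 12 the signal was wide but shallow. At least 1 UMI of either transcript was found in 230 of 284 nuclei (81.0%, 95% Wilson interval 76.0 to 85.1, which like all such intervals here covers counting error only). Of these, 189 nuclei carried exactly 1 UMI, 28 carried 2 and 13 carried 3 or more, with a highest value of 5. Slc7a15 alone was seen in 121 nuclei, 5033421B08Rik alone in 84 and both in 25. The remaining 54 nuclei (19.0%) carried neither. By sample the share with either transcript was 75.8% in QCM replicate 1, 86.0% in QCM replicate 2, 81.0% in QCM replicate 3, 75.0% in SCM replicate 2 and 83.7% in SCM replicate 3. The shares in the other nuclei of the same samples were 12.5, 1.70, 1.71, 3.44 and 1.82%. The shares thus lay close together among samples inside the cluster, and outside it the deepest sample, with a median of 8258 UMIs per nucleus, stood well above the others. In cluster 11, led by the tuft cell genes Dclk1 and Pou2f3, 3.28% of nuclei held either transcript at a median of 2080.5 UMIs, beside a median of 2099.5 in cluster 12. The single nucleus of SCM replicate 1 carried 1 UMI of 5033421B08Rik and 0 of Slc7a15.

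Cluster 8 was the larger cluster with the most of these transcripts, and its leading genes Slc2a2, the basolateral glucose carrier, and Slc9a3, the apical sodium and proton exchanger, make it enterocyte-like. Summed over all samples, Slc7a15 lay at 80.1 CPM and 5033421B08Rik at 46.6 CPM in cluster 8, against 199 and 150 CPM in cluster 12. The order was the other way round in QCM replicate 1, where Slc7a15 lay at 133 CPM in cluster 8 and 83.9 in cluster 12 and 5033421B08Rik at 85.4 and 31.5 CPM. In the other 4 samples with 10 or more nuclei of cluster 12, cluster 8 ranged from 36.1 to 56.8 CPM for Slc7a15 and from 11.4 to 27.0 CPM for 5033421B08Rik, below every value of cluster 12 there. In cluster 8 19.9% of nuclei held either transcript, and the share was 14.6% without QCM replicate 1. Positive nuclei of cluster 8 held 3.03 UMIs of the pair on average and those of cluster 12 held 1.27, but QCM replicate 1 gave 596 of the 854 UMIs of cluster 8. Without that sample the values were 1.43 and 1.27. The share of nuclei with 3 or more UMIs was 4.59% in cluster 8 and 4.58% in cluster 12, and 1.14% and 4.38% without QCM replicate 1. Of the 15 nuclei in the whole table with 10 or more UMIs of the pair, 12 lay in cluster 8 and 0 in cluster 12. All 12 were from QCM replicate 1, where the highest held 72, and the highest nucleus of cluster 8 in any other sample held 9. Cluster 12 held 16.4% of all nuclei with either transcript and 12.2% of their UMIs, while cluster 8 held 35.5% of the UMIs. Without QCM replicate 1 the shares of the UMIs were 20.11% in cluster 12 and 19.95% in cluster 8. The pair was therefore not confined to cluster 12. Averaged over all nuclei of a cluster it was highest in cluster 12, at 1.03 UMIs per nucleus, followed by 1.00 in cluster 14 and 0.603 in cluster 8, and without QCM replicate 1 it was 1.04 in cluster 12 and 0.210 in cluster 8. In cluster 14, 47.8% of the 92 nuclei held either transcript at a median depth of 39432.5 UMIs.

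**Figure D3:**
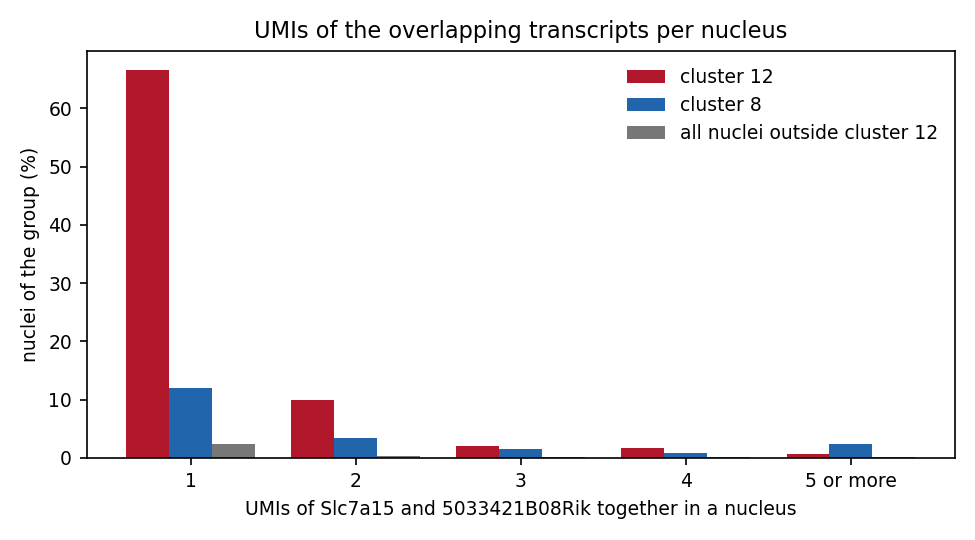
Share of nuclei by the number of UMIs of Slc7a15 and 5033421B08Rik together, in cluster 12 (red), the enterocyte-like cluster 8 (blue) and all nuclei outside cluster 12 (grey). Nuclei with 0 UMIs are not drawn, and they make up 19.0% of cluster 12, 80.1% of cluster 8 and 96.9% of the nuclei outside cluster 12. QCM replicate 1 gave 51 of the 65 nuclei of cluster 8 with 3 or more UMIs.

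A difference remained after each nucleus was thinned to 1000 UMIs. It is no separate support, because the nuclei had been grouped on these same UMIs. Either transcript was then found in 45.2% of cluster 12 (12 shallower nuclei left out), 6.73% of cluster 8 (50 left out), 0.91% of cluster 4 (639 left out) and 0.75% of all nuclei outside cluster 12 (3167 left out). By sample the thinned share in cluster 12 was 21.2% in QCM replicate 1, 25 of 50 nuclei in QCM replicate 2 and 68.8% in QCM replicate 3. It was 30.9% in SCM replicate 2 and 48.2% in SCM replicate 3, so that the samples spread more widely than before thinning. The share was lowest in the deepest of these samples and highest in the shallowest. At 500 UMIs the shares were 25.4% in cluster 12, 4.24% in cluster 8 and 0.44% outside cluster 12, and QCM replicate 1 had 0 of 33 nuclei left with either transcript, which allows up to 9.09% of nuclei with a UMI at that depth and does not limit the share that carry the transcripts. Nuclei with exactly 1 UMI of the pair were shallower inside the cluster than outside it in every sample. Their median was 2140 UMIs inside and 4034 outside in QCM replicate 2, and 1856 and 3136 in SCM replicate 3. In QCM replicate 1 it was 8630 and 9400.

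Of the 5 genes proposed as markers of the cluster, Slc7a15 alone was well measured. Zfp941 and Zfp773, both zinc finger proteins, Arl6, a small GTPase of the ciliary BBSome pathway, and Smpdl3a, a phosphodiesterase, had log2 ratios of 0.66, 0.64, 0.80 and 0.71. These rest on 5, 5, 5 and 16 UMIs in the whole cluster, and the genes were higher than in the other nuclei in 3, 3, 3 and 4 of the 5 samples. Smpdl3a reached 58.8 CPM in QCM replicate 2 and 0 in QCM replicate 3. Without QCM replicate 2 the ratio of Smpdl3a was 0.23 and those of Zfp941 and Zfp773 were both 0.39. Without SCM replicate 2 that of Zfp773 was 0.38, and without QCM replicate 3 that of Arl6 was 0.50 and that of Smpdl3a 1.11.

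After the pair, the highest ratios fell to about 1 on the log2 scale. The genes named here were taken from the 7597 with a mean of at least 20 CPM in cluster 12 and a UMI there in each of the 5 samples. That filter favours genes that are high in the cluster. The predicted gene 4932443L11Rik had 1.15 ± 1.03 on 18 UMIs and Ttc28, a tetratricopeptide repeat protein, had 1.15 ± 0.62 on 20 UMIs. Coprs, a partner of the arginine methyltransferase Prmt5, had 0.89, the guanine deaminase Gda had 0.88 and Id2, an inhibitor of basic helix-loop-helix factors, had 0.88. Lower ratios were seen for 2310057M21Rik (0.82), the tapasin relative Tapbpl (0.81), the atypical kinase Mapk4 (0.80), Tmem167b (0.78), L3hypdh (0.77), the ribosome assembly factor Grwd1 (0.76) and the pyruvate dehydrogenase kinase Pdk2 (0.75). Egln3, a prolyl hydroxylase of the hypoxia response, was the best counted of this group with 99 UMIs, a ratio of 0.78 ± 0.72 and higher values in 4 of 5 samples. Every other gene named here rests on 17 to 26 UMIs. Apart from Egln3, these genes and the pair were below 20 CPM in the other nuclei and passed the minimum for ranking only through cluster 12, where they are high. Without SCM replicate 2 the ratio of Pdk2 was 0.43. Over all ranked genes the median ratio was -0.10, 4 genes had a mean ratio of at least 1 and 61 of at most -1, and 187 genes (2.24%) were above 0 in every sample.

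**Figure D4:**
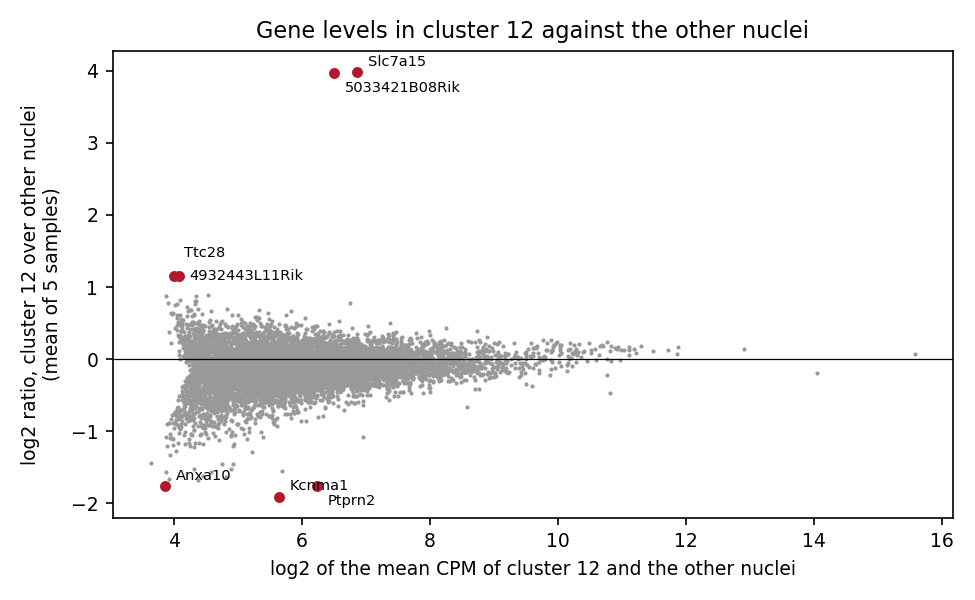
Mean log2 ratio of (CPM + 5) between cluster 12 and all other nuclei over 5 samples (vertical) against the log2 of the mean CPM (horizontal) for the 8336 ranked genes, each a point, with named genes in red. Slc7a15 and 5033421B08Rik stand near 4, and the next genes lie at 1.15 or below.

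Of the 8 genes with the lowest ratios, 4 were among the leading genes of clusters 6, 7 and 9. Kcnma1, a potassium channel gene and the leading gene of cluster 6, had -1.91 ± 1.15, with 22.2 CPM in cluster 12 against 77.8 CPM in the other nuclei. Ptprn2, a protein of dense core vesicles that was among the leading genes of cluster 9, had -1.77 ± 0.30 and was lower in all 5 samples. Anxa10, an annexin among the leading genes of cluster 7, had -1.76, and Sytl2, a Rab27 effector in secretion among those of cluster 6, had -1.66. Stard3, a sterol transfer protein, 6030458C11Rik, the cadherin Cdh13 and the membrane repair protein Myof had -1.68, -1.63, -1.62 and -1.57. These 4 genes rest on 9, 10, 4 and 7 UMIs in cluster 12, and Anxa10 and Sytl2 on 4 each. Cdh13 was higher in cluster 12 in QCM replicate 2, its ratios had an SD of 1.88, and without SCM replicate 2 its mean was -0.86. In all, 472 genes (5.66%) were below 0 in every sample, more than were above it. Few UMIs limit such counts. Genes at least 2-fold lower in every sample numbered 2, but 66 after thinning to 500 UMIs and 56 in the nuclei with neither transcript. A broad loss of expression was not tested.

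Marker lists of the known cell types had median ratios between -0.52 and 0.02 wherever a gene was ranked. Summed over 20 enterocyte markers, the level in cluster 12 ranged from 2028 to 7535 CPM over the 5 samples, beside 1946 to 6726 CPM in the other nuclei and 5932 to 13200 CPM in cluster 8. It was above that of the other nuclei of the same sample in all 5 samples. The fatty acid binding protein Fabp1 was at 823 CPM in cluster 12, 715 in the other nuclei and 1078 in cluster 8, and the brush border enzyme Sis at 485, 465 and 1930 CPM. The median ratio of the 16 ranked enterocyte genes was -0.01, against -0.10 for all ranked genes. The 15 brush border enzymes summed to between 1139 and 1484 CPM in cluster 12, 1208 to 1356 in the other nuclei and 3240 to 5245 in cluster 8. Amino acid carriers other than Slc7a15 were near the other nuclei, with Slc38a2 at 261 against 282 CPM, Slc38a1 at 239 against 175 CPM and Slc7a7 at 110 against 93.2 CPM. None of the 16 ranked enterocyte genes was above the other nuclei in every sample.

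Stem cell genes were level, with a median ratio of 0.02 over 6 ranked genes. Lgr5, the receptor that marks crypt stem cells, was at 461 CPM against 466 in the other nuclei, and Smoc2 at 670 against 717. Genes of S phase and of G2 and M phase had medians of -0.05 and -0.18. Among secretory lists the medians were -0.24 for goblet, -0.01 for Paneth and -0.24 for enteroendocrine genes, and the mucus peptide Tff3 was at 384 against 328 CPM. Ratios of the 6 ranked goblet genes ran from -0.53 to 0.10, and the goblet list summed above the other nuclei in 2 of 5 samples. The fetal list had the lowest median, -0.52, with ratios of its 6 ranked genes from -1.18 to 0.18. Anxa3, the lowest of them, had -1.18 ± 1.49, or -0.65 without SCM replicate 3, and S100a6 had -0.29 ± 0.35. Tuft, M cell, fibroblast, immune and endothelial lists had 0 ranked genes. Their summed levels were 0 to 46.4 CPM for tuft, 22.1 to 67.4 for M cell, 5.61 to 18.5 for fibroblast, 0 to 11.2 for immune and 0 to 15.4 for endothelial markers. In the other nuclei they were 30.1 to 52.98, 22.6 to 74.1, 3.85 to 37.3, 3.02 to 5.95 and 6.63 to 16.9 CPM. The tuft sum was below that of the other nuclei in all 5 samples, with a median of 21.0 against 34.4 CPM. The fibroblast sum was above that of the other nuclei in 3 of 5 samples, with a median of 14.7 against 7.81 CPM. The M cell, immune and endothelial sums were above in 2, 2 and 1 of 5 samples. Of the genes measured, 5 of 12 tuft, 2 of 7 M cell, 5 of 11 fibroblast, 7 of 9 immune and 3 of 7 endothelial genes were at 0 UMIs in cluster 12. Among them were Dclk1 of tuft cells, Col1a1 of fibroblasts, Ptprc of immune cells and Cdh5 of endothelium. A count of 0 allows up to 3.57 CPM, which is within the range of the whole immune list in the other nuclei.

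Lists of pathways gave the same picture. Medians were 0.01 for villus tip genes, -0.01 for fat handling, 0.04 for xenobiotic and retinoid enzymes, -0.14 for sphingolipid and phosphodiesterase enzymes, -0.15 for BBSome and ciliary transport and -0.04 for intestinal identity factors. They were -0.24 for Notch, -0.11 for Wnt, -0.23 for YAP targets, -0.27 for p53 and arrest, -0.20 for immediate early genes, 0.02 for interferon and antigen presentation and -0.16 for nuclear long noncoding RNA. Ribosomal protein genes and oxidative phosphorylation genes had the highest medians, 0.12 over 25 genes and 0.10 over 21 genes. Slc7a15 was the 1 gene of any list that was at least 2-fold higher in every sample.

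No larger cluster was a clear nearest neighbour by expression. After each gene was centred across clusters, the profile of cluster 12 over 12219 genes had its highest correlation with cluster 1, r = 0.17, followed by cluster 4 with 0.10 and cluster 3 with 0.05. Over the samples taken one by one the correlation with cluster 1 had an SD of 0.27, so that these neighbours cannot be ordered, and without QCM replicate 1 cluster 5 came first with 0.06 and cluster 1 had 0.0015. The correlation with cluster 1 was also near 0 with a pseudocount of 1 or after thinning to 1000 UMIs. These correlations are across genes, and all profiles come from the same libraries. Without the overlapping pair the value for cluster 1 was 0.18. On the deposited map of the nuclei (UMAP), 63.7% of the 10 nearest nuclei of a cluster 12 nucleus were also of cluster 12. Of the rest, 24.0% were of cluster 4, 4.19% of cluster 5 and 3.87% of cluster 8, as percentages of all neighbours. The share of neighbours from the own cluster was lower only in clusters 7 (63.1%), 10 (48.0%) and 14 (59.6%), and it was 93.9% in cluster 11. For the 54 nuclei with neither transcript, 34.8% of the neighbours were of cluster 12 and 39.8% of cluster 4, while for those with either transcript the values were 70.5% and 20.3%. Cluster 4 was the shallowest cluster, with a median of 1571.5 UMIs against 2099.5 in cluster 12.

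Median depth and mitochondrial content lay close to those of the other nuclei. The median nucleus of cluster 12 held 8569 UMIs in QCM replicate 1, 2243.5 in QCM replicate 2, 1679.5 in QCM replicate 3, 2211.5 in SCM replicate 2 and 1886.5 in SCM replicate 3, beside 8258, 2302, 1578, 2551.5 and 1967 in the other nuclei. By the median, cluster 12 was above the other nuclei in 2 samples and below in 3. By the mean it was below in all 5 samples, from 1859 against 1965 UMIs in QCM replicate 3 to 2320 against 4157 in SCM replicate 2. The deposited mitochondrial fraction had medians of 1.00, 1.76, 3.94, 2.63 and 3.84% in cluster 12 and of 1.01, 1.83, 3.71, 2.20 and 3.54% elsewhere, a mean difference of 0.18 percentage points. Both medians differed more among samples than between cluster 12 and the other nuclei of a sample. Of its nuclei 3 (1.06%) lay above the 95th percentile of UMIs of their sample, and the deepest held 12364 UMIs against 289467 in the deepest nucleus of all. Among all libraries 330 barcode sequences occurred more than once, 4 nuclei of cluster 12 carried such a barcode, and 0 pairs of them were both in cluster 12.

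**Figure D5:**
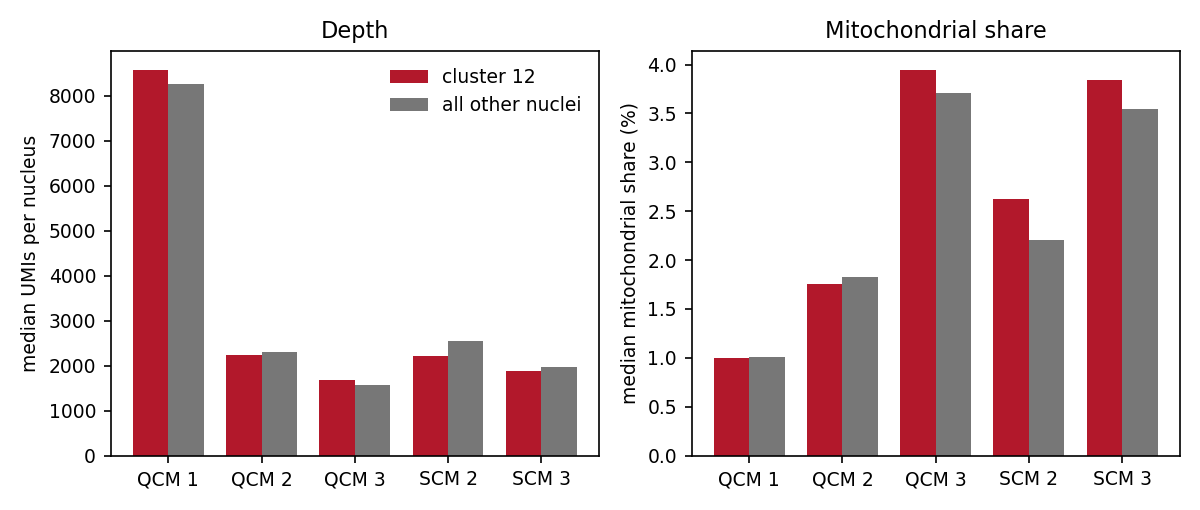
Median UMIs per nucleus (left) and median mitochondrial share of a nucleus (right) in cluster 12 (red) and in all other nuclei (grey) of each sample. Red and grey bars of a sample lie close together, while the samples differ from 1578 to 8569 UMIs and from 1.00 to 3.94%.

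The study asked how the senescent medium changes the epithelium, and the share of nuclei in cluster 12 did not differ between the media beyond the spread between samples. It was 0.870% in QCM replicate 1 (95% Wilson interval 0.621 to 1.22), 0.631% in QCM replicate 2 (0.479 to 0.830) and 0.572% in QCM replicate 3 (0.443 to 0.738). In SCM replicates 1, 2 and 3 it was 0.233% (0.0411 to 1.31), 1.11% (0.859 to 1.44) and 0.794% (0.643 to 0.979). The SCM samples lay on both sides of the QCM samples, and SCM replicate 1 held 430 nuclei in all. Means were 0.691% ± 0.158 (SD, n = 3) in QCM and 0.714% ± 0.446 in SCM. By edgeR's quasi-likelihood test over the 15 clusters the log2 change was 0.20 with an SE of 0.47 (adjusted p = 0.981), and the two-sided exact permutation test gave p = 1, where 0.1 is the smallest p that 3 against 3 samples allow. Without SCM replicate 2 the sign turned, with a log2 change of -0.19. Without SCM replicate 1, which held 1 nucleus of the cluster, the log2 change was 0.47 with an SE of 0.36 (edgeR, adjusted p = 0.749).

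Depth within the cluster did not separate the media either. The per-sample medians averaged 4164 ± 3825 UMIs (SD, n = 3) in QCM and 2049 ± 230 (n = 2) in SCM, with p = 0.8 by the two-sided exact permutation test, in which 0.2 is the smallest p possible. QCM replicate 1 decided the direction, and without it SCM was higher by 87.5 UMIs. Genes per nucleus averaged 2012.5 in QCM and 1413.5 in SCM (p = 0.8, same exact test), and SCM was higher by 53.8 without QCM replicate 1. The mitochondrial share averaged 2.23% ± 1.53 in QCM and 3.23% ± 0.858 in SCM (p = 0.6, same exact test). SCM was higher by 0.38 percentage points without QCM replicate 1 and by 0.39 without SCM replicate 3, but by 1.85 without QCM replicate 3 and by 1.61 without SCM replicate 2.

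No gene of cluster 12 passed the main test between media, and 4 passed with the replicate number as a block. The block fit compared the media only within replicates 2 and 3, because QCM replicate 1 has no SCM partner in it. Of 3795 genes tested, 0 (0.0%) had an adjusted p under 0.05 by edgeR's quasi-likelihood test with Benjamini-Hochberg adjustment, and 176 (4.64%) had an unadjusted p under 0.05, with estimates higher in SCM for 28 of them and lower for 148. Without QCM replicate 1 these were 71 genes, 32 higher and 39 lower, without QCM replicate 2 they were 607, 99 higher and 508 lower, and without SCM replicate 2 they were 92, 6 higher and 86 lower. DESeq2 also called 0, with 166 under an unadjusted 0.05. With library size alone in place of TMM scaling the median of all genes moved from 0.01 to 0.20, the split became 48 higher and 118 lower, and 3 genes (0.0791%) were called. These were the small nuclear RNA gene Rn7sk, the apolipoprotein gene Apoa4 and Gm9843, all lower in SCM and named after their values were seen. In simulated data of the same size 4% of genes changed 2-fold, 62% of those changed 4-fold and 94% of those changed 8-fold were recovered. The simulation gave every gene the same dispersion (0.143) and no sample that stands apart, so these shares may be too high for the data. Serf2, for example, had an estimate of -2.83 with an SE of 0.82 and was not called. Changes of 2-fold were mostly not recovered even in the simulation.

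QCM replicate 1 also stood apart in content. Xist, the RNA of the inactive X chromosome, was at 2775 CPM in its nuclei of cluster 12 and at 0, 0, 0 and 5.61 CPM in QCM replicates 2 and 3 and SCM replicates 2 and 3, and it was high again in the other nuclei of SCM replicate 1, at 6609 CPM. Apoa4 was at 870 CPM in QCM replicate 1 and at 44.1, 83.5, 38.5 and 50.5 CPM in the other samples in order. The part of this library in the values between media was not tested beyond leaving it out.

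The defining transcripts cannot be compared freely between media, since the nuclei had been grouped on these counts. In each of the 5 samples the cluster held about 1 UMI of the pair per nucleus whatever its depth, namely 33 UMIs in 33 nuclei, 64 in 50, 57 in 58, 55 in 56 and 83 in 86, and CPM was lowest in the deepest sample. With that limit, Slc7a15 had a log2 change of 0.17 with an SE of 0.45 and 5033421B08Rik had 0.24 with an SE of 0.60, given with no test, and both changed sign without QCM replicate 1, to -0.17 and -0.26. The smallest unadjusted p among genes lower in SCM belonged to Magt1, a magnesium carrier and subunit of the oligosaccharyltransferase. It was at 143, 176 and 167 CPM in QCM replicates 1, 2 and 3 and at 61.6 and 61.7 CPM in SCM replicates 2 and 3, a log2 change of -1.59 with an SE of 0.41 (edgeR, adjusted p = 0.794). Its media did not overlap, as was the case for 19.2% of all genes tested, and in the other nuclei the same gene lay between 127 and 156 CPM in all 5 samples. Serf2 and the glutathione transferase Gstm3 followed with -2.83 and -2.30 and the same adjusted p. Serf2 ranged from 95.5 to 335 CPM in QCM and was at 7.70 and 61.7 CPM in SCM.

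Among genes higher in SCM the smallest p belonged to Trio, a guanine nucleotide exchange factor. It was at 66.4, 169 and 139 CPM in QCM and at 439 and 236 CPM in SCM, a log2 change of 1.30 with an SE of 0.43 (edgeR, adjusted p = 0.794). The estimate for Trio was 0.85 without SCM replicate 2 and 1.68 without SCM replicate 3. Casp8, the initiator caspase of death receptor signalling, had 1.26 and Auts2, a chromatin regulator, had 1.19, both with the same adjusted p. None of these 6 genes passed the main test, and their values are given as the rule for naming required. With the replicate number as a block Serf2 alone of the 6 was called.

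By list, 0 members were called by the same edgeR test in any of the 26 lists with a gene tested. With the replicate number as a block S100a6 of the fetal list was among the genes called, in a fit that compares replicates 2 and 3 only. It was at 391, 58.8 and 204 CPM in QCM replicates 1, 2 and 3 and at 369 and 516 CPM in SCM replicates 2 and 3, so that the media overlapped. Of the 15 lists with 4 or more members tested, 5 had every member lower in SCM, and these 5 are given here. Among all genes tested 1867 of 3795 had lower estimates, and members of a list are not replicates. All 25 ribosomal protein, all 21 oxidative phosphorylation and all 11 tested enterocyte genes were lower. Their median log2 changes were -1.31, -1.14 and -1.09 beside 0.01 for all genes. All 4 tested goblet and all 7 tested G2 and M phase genes were lower too, with medians of -1.49 and -0.61. With library size alone the counts of lower genes were 25, 20, 10, 4 and 5, beside 1387 of all genes tested. Without QCM replicate 1 the medians moved to -0.53, -0.47, -0.31, -0.56 and -0.42, with 25 of 25, 16 of 19, 7 of 9, 4 of 4 and 6 of 6 genes lower. Rplp1, for example, was at 5854, 1815 and 3608 CPM in QCM replicates 1, 2 and 3 and at 993 and 2694 CPM in SCM, so that the media overlapped. Of the 10 tested Wnt pathway genes 9 had higher estimates in SCM with a median of 0.46. Without QCM replicate 1 the median was 0.26 and 3 of 10 were lower. Lgr5 had 0.58 with an SE of 0.56 (edgeR, adjusted p = 0.87), and 0.20 without QCM replicate 1.

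The difference of the medium effect between cluster 12 and the other nuclei was tested as an interaction with sample as a factor. Of 17576 genes, 0 (0.0%) passed by edgeR's quasi-likelihood test, 481 (2.74%) had an unadjusted p under 0.05, and the smallest adjusted p was 0.228, for Rn7sk. Against clusters 1, 4 and 3 in place of all other nuclei Rn7sk alone was called, and it was called alone without QCM replicate 3. Rn7sk was at 842, 7.35 and 1057 CPM in QCM replicates 1, 2 and 3 and at 46.2 and 39.3 CPM in SCM replicates 2 and 3 within cluster 12, so the QCM samples spanned both SCM values. The median interaction over the ribosomal protein, oxidative phosphorylation and enterocyte genes was -0.01, -0.03 and -0.02, and over the goblet and the G2 and M phase genes it was -0.26 and -0.39, beside 0.05 for all genes tested in cluster 12. These medians were not tested. In simulated data of the same size, again with the same dispersion for every gene, 30% of 4-fold and 62% of 16-fold differences were recovered. These shares may also be too high for the data.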

How the data were processed

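Nuclei of frozen organoids had been sequenced with a droplet kit (v3.1) that reads the 3′ end. Per the study's methods and the submitters' processing notes, the authors counted reads with Cell Ranger (version 2.1.1 in the notes) on mm10, with Ensembl annotation, and removed nuclei with a high mitochondrial fraction or few reads or features before deposit. They regressed out depth and mitochondrial reads, integrated the samples with Harmony and clustered with Leiden. The deposited matrices hold UMI counts, and the deposited metadata give the cluster and the mitochondrial fraction of each nucleus. Deposited totals per nucleus exceed the matrix sums by a median of 3.13%. The authors' UMAP coordinates, deposited as a score without unit and made after integration, gave the map neighbours, and the deposited log matrix was not used. Whether strand or intronic reads were used in counting is not given in the sources used here. Total counts per sample ranged from 4071926 to 41035733 UMIs.

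Counts were summed per sample over cluster 12 and over all other nuclei. Ratios used CPM plus a pseudocount of 5, over genes with a mean of at least 20 CPM in either kind. edgeR 4.0.16 (TMM, filterByExpr, quasi-likelihood test, Benjamini-Hochberg, threshold 0.05) compared media in samples with 10 or more nuclei. The study's methods say in general that replicates are mice, but the labels tie no sample to a mouse, so p-values measure the spread between these samples. Shares of nuclei were tested over all 15 clusters, and depth by exact permutation. DESeq2 1.42.0, limma 3.58.1, R 4.3.3, Python 3.11.15 and scipy 1.17.1 were also used. Both edgeR fits were tested on simulated data with 200 changed genes and the same dispersion for every gene. No doublet caller was run, and fits without nuclei above the 95th percentile of UMIs stand in for it. Gene symbols matched GENCODE M21 for 31258 of 31319 genes. Some genes are not analysed here.

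Genes were named by a rule: the 5 proposed markers, the 15 highest and 8 lowest ratios, the 3 genes per direction with the smallest p where none was called, and up to 4 well counted members of each of 31 lists. The cluster, the lists and the rule were chosen with earlier results of these data known.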

Additional observations from a re-analysis of the deposited data

How the results depend on the processing

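Slc7a15 and 5033421B08Rik were both at least 2-fold higher in every sample with a pseudocount of 1, after thinning to 1000 UMIs, against the 3 nearest clusters and when deep nuclei or any 1 sample were left out. Log2 ratios over left-out samples were 3.76 to 4.50 for Slc7a15 and 3.70 to 4.59 for 5033421B08Rik. All these settings keep nuclei that had been grouped on these same counts, so they are no separate support. Genes at least 2-fold higher in every sample numbered 1 with a pseudocount of 20, 0 after thinning to 500 UMIs, where QCM replicate 1 had no nucleus left with either transcript, 0 in the nuclei with neither transcript, and 2 to 3 with 1 sample left out. Genes at least 2-fold lower numbered 1 with a pseudocount of 20, 0 against the 3 nearest clusters, 5 and 66 after thinning to 1000 and 500 UMIs, 1 without deep nuclei, 56 in the nuclei with neither transcript, and 1 to 5 with 1 sample left out. The correlation with cluster 1 was 0.97 without centring, where cluster 3 came first with 0.98, 0.00011 with a pseudocount of 1, 0.027 after thinning to 1000 UMIs, and 0.0015 to 0.20 with 1 sample left out. The nuclei with neither transcript, the profile without the pair, cluster 8 without QCM replicate 1 and single genes with a sample left out were chosen after seeing the data. Between media, 3 genes were called with library size alone, 21 without a low-count filter and 0 to 2 with 1 sample left out (Rn7sk without QCM replicate 2, Tsix and Cyp2c29 without SCM replicate 2). With the replicate number as a block 4 genes were called, namely Gm26870, Rn7sk, Serf2 and S100a6, the last a member of the fetal list with a log2 change of 1.77 in place of 0.63. From QCM to SCM, Gm26870 went from 36.7 to 108 CPM in replicate 2 but from 1465 to 39.3 CPM in replicate 3. Rn7sk went from 7.35 to 46.2 CPM in replicate 2 but from 1057 to 39.3 CPM in replicate 3. Serf2 was lower and S100a6 higher in SCM in both of these replicates. QCM replicate 1 has no SCM partner in this fit. Replicates 2 and 3 alone form pairs, with deviations correlated at 0.44 and -0.05. With 2 SCM samples their deviations mirror each other, so these values cannot decide whether the numbers pair the samples. In the other nuclei Xist was at 4105 and 6609 CPM in replicate 1 of QCM and SCM. It was at 1.06 to 2.52 CPM in replicates 2 and 3 of both media. The main fit used no block. The interaction called 1 gene against the 3 nearest clusters and 0 to 1 with 1 sample left out. The change in share was -0.0018 on the arcsine scale, 0.24 with the replicate block and -0.19 to 0.47 on the log2 scale with 1 sample left out. With 1 sample left out, SCM minus QCM ranged from -3357 to 87.5 UMIs, -1020.5 to 53.8 genes and 0.38 to 1.85 percentage points of mitochondrial share. Where a setting moved a value without its construction showing why, the cause was not tested. Leaving out an SCM sample leaves 1, assumed to vary as the QCM samples do. The minimum of 5 or of 20 nuclei kept the same 5 samples. Depth limits single genes, and after the pair and Egln3 those with the highest ratios rest on 17 to 26 UMIs in the cluster.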
